A study of Mus musculus with 84 samples.

Results

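Cortical projection neurons of layers 5 and 6 carry the output of the cortex to the thalamus, midbrain, brainstem and spinal cord, and they are recognised by a small set of regulatory genes. The 8 genes described here, Bcl11b, Fezf2, Tbr1, Foxp2, Tle4, Sox5, Etv1 and Crym, are markers of those layers and were chosen by name as known deep-layer markers. They are 8 of the 55401 gene IDs counted in the series. All 8 were among the 17941 genes with enough counts to be tested, with 140 to 1761 reads per mouse each.

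RNA was measured in neuronal nuclei of the frontal cortex of 16 mice of the strain 129S6/SvEvTac, aged 12 weeks, with 4 mice in each of 4 groups. Control mice received vehicle, and the other mice received 1 exposure to DOI (2,5-dimethoxy-4-iodoamphetamine), a psychedelic that acts on serotonin receptors of the 5-HT2 class, and were examined 24 h, 48 h or 7 days later. Tissue was taken anterior to bregma +1 mm, and nuclei positive for NeuN, a protein of most mature neurons, were sorted before SMART-seq2 library preparation. Each mouse gave 2 libraries, whose counts were summed, so that the mouse is the replicate. All mice share the strain, and the labels name no transgene. The file headers give 3 mice (mouse 1 at 24 h, mouse 2 at 48 h and mouse 2 at 7 days) the number 6, which differs from their labels. The labels were followed, and for member calls that change without these mice the value without them is also given. The dose and the sex of the mice are not given in the sources used here. Each group at a time after DOI was compared with the same 4 vehicle mice, so the comparisons with vehicle are not independent of each other.

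In developing cortex these genes act in a network that sorts neurons by the target of their axons. Fezf2 and Bcl11b promote the fate of layer 5 neurons that project below the cortex, and Tbr1 and Sox5 act in layer 6 and subplate neurons that project to the thalamus. In the adult cortex the genes stay on at lower levels and mark the layers: Foxp2 and Tle4 mark layer 6, Etv1 marks layer 5, and Crym marks layer 5 and 6 neurons.

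After DOI the 8 genes did not move as a block. Tle4, which codes for a transcriptional corepressor of the Groucho family, was lower in all 4 mice at 24 h and in all 4 at 48 h than in any vehicle mouse, with means 0.560 and 0.538 of the vehicle mean. Tbr1, a T-box factor, was higher in all 4 mice at both times, with means 1.78 and 1.82 times the vehicle mean. Fezf2, a zinc finger repressor, passed the test at 48 h as higher, with a mean 1.575 times that of vehicle. Sox5, Etv1 and Crym did not pass a test at any time, and at 7 days no member did.

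In numbers of calls, 2 of the 8 members (25.0%) passed an adjusted p of 0.05 at 24 h against vehicle, 1 higher and 1 lower, where 24.2% of all genes tested did. At 48 h it was 3 of 8 (37.5%), 2 higher and 1 lower, against 30.1% of all genes. At 7 days it was 0 of 8 and 0% of all genes by edgeR's quasi-likelihood test, with 2 members at an unadjusted p below 0.05, 1 member called by DESeq2 (of 796 genes that it called in all) and 0 by limma with voom. At 24 h 13.8% of all genes were higher and 10.4% lower, and at 48 h 16.8% and 13.3%. The share of members called was thus near the share among all genes. The median log2 fold change of the 8 members was 0.36 at 24 h, 0.39 at 48 h and 0.23 at 7 days, against 0.03, 0.02 and 0.02 over all genes tested. Counted by levels alone, 3 of 8 members (Bcl11b, Tbr1 and Tle4) had no overlap with the vehicle mice at 24 h and the same 3 at 48 h, beside 35.7% and 38.1% of all genes, and at 7 days 0 of 8 beside 5.85%. Levels below are CPM, the reads of a gene scaled to a common total of reads per mouse, with scaling factors by the TMM method. Fold changes and p-values come from edgeR (quasi-likelihood test, Benjamini-Hochberg over every gene tested).

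**Figure D1:**
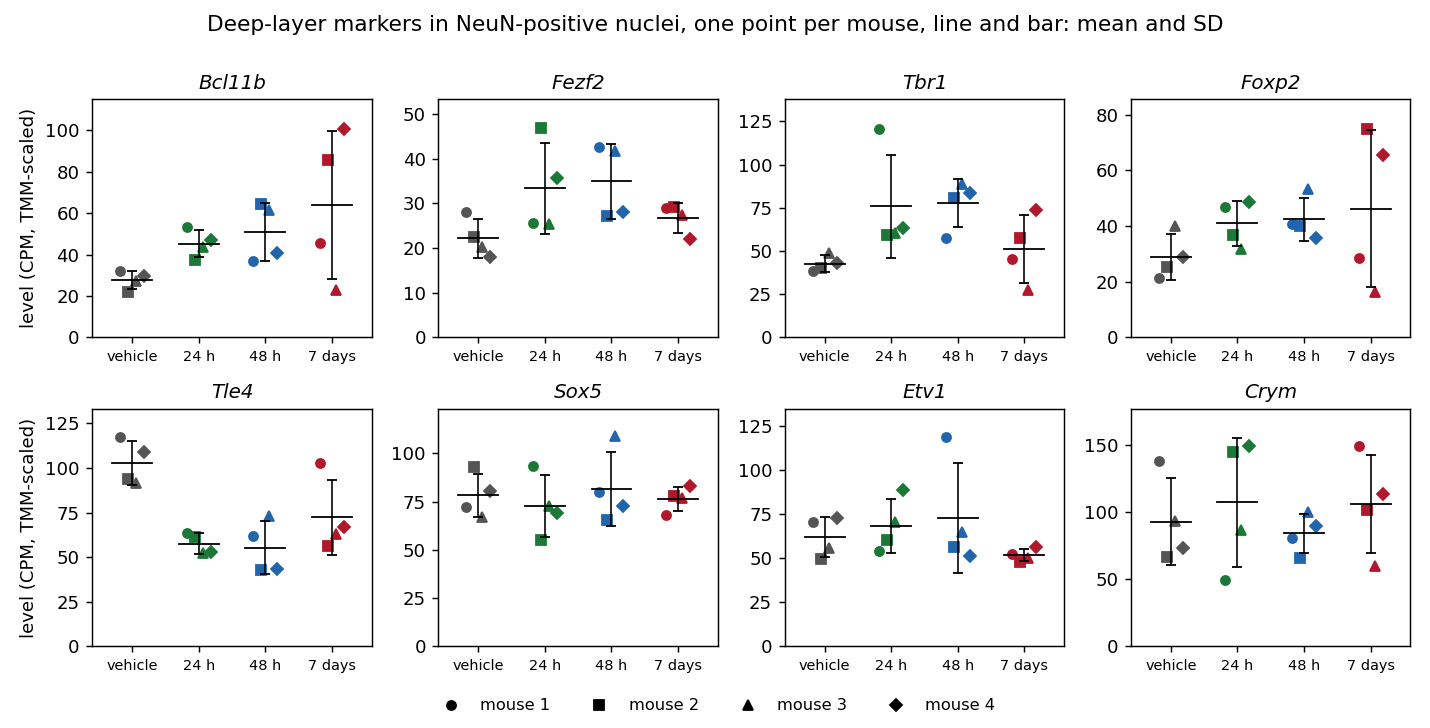
Level of each of the 8 markers in every mouse, in TMM-scaled CPM on linear axes that start at 0. Points are mice, with the shape giving the mouse number within its group, and the line and bar give the mean and SD of 4 mice. Tle4 lies at 91.5 to 117.3 CPM in vehicle mice and at or below 73.2 CPM at 24 h and 48 h, and Bcl11b at 7 days runs from 23.0 to 100.6 CPM.

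Tle4 lies on the minus strand of chromosome 19 (14448150 to 14598051, GRCm38) with 5702 exon bases. It codes for a corepressor that binds no DNA of its own and is recruited by partner factors, and in cortex it marks the layer 6 neurons that project to the thalamus. RefSeq's annotation of GRCm38.p6 gives it 2 promoter windows. The one outside its exons is shown because this is the member whose level fell at both early times. It covers the 250 bases before a start site, chr19:14598184-14598433, read on the minus strand, and the capitals mark ATTGG, the CCAAT box (CCAAT) read on the other strand.

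Tle4 promoter: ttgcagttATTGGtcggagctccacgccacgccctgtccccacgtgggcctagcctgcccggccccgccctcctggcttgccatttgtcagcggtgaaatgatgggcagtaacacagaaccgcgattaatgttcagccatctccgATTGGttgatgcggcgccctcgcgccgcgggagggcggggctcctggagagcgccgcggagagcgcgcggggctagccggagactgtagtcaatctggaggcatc

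The window holds 2 CCAAT boxes, 242 and 105 bases before the start site. It also holds 24 CG dinucleotides and is 65.2% G or C, where the medians over all 32851 mouse promoter windows of the same length are 6 and 52.4%. A CCAAT box on either strand occurs in 33.8% of those windows, so its presence is common. The search also covered the cyclic AMP response element (TGACGTCA, in 1.55% of windows), the AP-1 site (TGACTCA, 4.46%), the NR4A monomer site (AAAGGTCA, 1.34%), the EGR site (GCGTGGGCG, 0.536%) and the TATA box (TATAAA, 12.4%), each on both strands. RefSeq windows were found for 6 of the 8 members. None of them held any of the first 4 of these motifs, which are bound by factors that neuronal activity induces or activates, and this says only that these letters are not in these windows. The only TATAAA match was in 1 window of Etv1.

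Tle4 measured 117.3, 93.7, 91.5 and 108.9 CPM in vehicle mice 1 to 4. At 24 h it measured 63.8, 61.5, 52.4 and 52.8 CPM, and at 48 h 62.15, 42.7, 73.2 and 43.3 CPM. Every mouse at both times was below the lowest vehicle mouse. The mean was 102.8 ± 12.35 CPM (SD, n = 4) in vehicle mice, 57.6 ± 5.89 (SD, n = 4) at 24 h and 55.35 ± 14.95 (SD, n = 4) at 48 h. On the log2 scale Tle4 fell by 0.84 at 24 h (SE 0.21, adjusted p = 0.0112) and fell by 0.89 at 48 h (SE 0.21, adjusted p = 0.00644). Groups separated without overlap in this direction in 17.2% of all genes at 24 h and in 19.0% at 48 h.

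At 7 days Tle4 was 103.1, 56.25, 62.9 and 67.2 CPM in mice 1 to 4, so 3 of 4 mice lay below all vehicle mice and mouse 1 lay among them. The log2 fold change was -0.51 (SE 0.21, edgeR adjusted p = 0.235), and without mouse 1 it was -0.72 (edgeR adjusted p = 0.0393). Tle4 was also the only member that passed edgeR's test for any difference among the 4 groups (adjusted p = 0.0171), a test that 18.8% of all genes passed. That call was lost when vehicle mouse 1 or vehicle mouse 4 was left out, each of which left 0 members called, whereas Tle4 kept its calls at 24 h and 48 h without any 1 mouse.

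The other Groucho family members did not all run the same way. Tle3, at 1.55 ± 0.520 CPM (SD, n = 4) in vehicle mice, was at 6.98 ± 2.24 CPM (SD, n = 4) at 24 h, or 2.17 higher in log2 terms (edgeR adjusted p = 0.00533), and rose by 2.15 at 48 h (edgeR adjusted p = 0.00450). Tle1, at 35.4 ± 2.88 CPM (SD, n = 4) in vehicle mice, had a log2 fold change of -0.69 at 24 h (edgeR adjusted p = 0.0518) and passed at 48 h as lower, at -0.71 (edgeR adjusted p = 0.0395). Tle2, Tle6 and the short family member Aes had negative log2 fold changes of -0.75 to -0.82 at 24 h, and none passed the test. None of the 4 lower-running relatives passed at 24 h, while Tle3 rose at both times.

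Tbr1 lies on the plus strand of chromosome 2 (61802930 to 61814114, GRCm38) with 5486 exon bases. It codes for a T-box transcription factor that represses Fezf2 and Bcl11b in layer 6 neurons of the developing cortex and stays on in adult glutamatergic neurons. It measured 38.15, 39.9, 49.0 and 43.1 CPM in vehicle mice, 120.5, 59.2, 60.35 and 63.4 CPM at 24 h, and 57.4, 80.7, 88.6 and 83.4 CPM at 48 h. All 8 mice at these times were above all vehicle mice, a separation seen in 18.5% of all genes at 24 h and 19.2% at 48 h. The log2 fold change was 0.83 at 24 h (SE 0.27, edgeR adjusted p = 0.0347) and 0.86 at 48 h (SE 0.27, edgeR adjusted p = 0.0250).

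The call for Tbr1 was close to its threshold. At 24 h mouse 1 stood apart at 120.5 CPM, and without it the log2 fold change was 0.52 (edgeR adjusted p = 0.158). Without the 3 mice numbered 6 in the headers the adjusted p at 24 h was 0.169 by edgeR and at 48 h 0.0298. Without any 1 vehicle mouse, or without mouse 4 at 24 h, the adjusted p at 24 h lay between 0.0507 and 0.0916 by edgeR. At 48 h it lay between 0.0511 and 0.0687 by edgeR without vehicle mouse 1, 2 or 4 or without mouse 2, 3 or 4 of the 48 h group. At 7 days Tbr1 was 45.3, 57.7, 27.3 and 73.9 CPM, spread on both sides of the vehicle mice (log2 fold change 0.26, edgeR adjusted p = 0.655). From 48 h to 7 days the log2 fold change was -0.60, with an unadjusted p of 0.0399 and an adjusted p of 0.281 by edgeR, so that the fall did not pass.

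Fezf2 lies on the minus strand of chromosome 14 (12342094 to 12348189, GRCm38) with 3047 exon bases. It codes for the zinc finger repressor that specifies layer 5 neurons projecting to the spinal cord and brainstem. It measured 28.1, 22.4, 20.1 and 18.1 CPM in vehicle mice, 25.6, 47.0, 25.5 and 35.6 CPM at 24 h, and 42.6, 27.3, 41.8 and 28.2 CPM at 48 h. The groups overlapped at both times, with 2 of 4 mice at 24 h and 3 of 4 at 48 h above all vehicle mice. The log2 fold change was 0.59 at 24 h (SE 0.24, edgeR adjusted p = 0.0749) and 0.66 at 48 h (SE 0.24, edgeR adjusted p = 0.0443). At 24 h Fezf2 passed by DESeq2 (adjusted p = 0.0477) and limma with voom (adjusted p = 0.00462). By edgeR it passed then with total counts (adjusted p = 0.0387), upper quartile factors (0.0423) or library 1 alone (0.0432), and under no other alternative. The 48 h call was lost (edgeR adjusted p between 0.0935 and 0.126) without vehicle mouse 2, 3 or 4 or without mouse 1 or 3 of the 48 h group. It was lost too with no filter on low counts (edgeR adjusted p = 0.138) and in library 2 alone, where the log2 fold change was 0.45 (edgeR adjusted p = 0.178) against 0.90 in library 1. At 7 days Fezf2 measured 28.9, 29.25, 27.3 and 22.0 CPM, with a log2 fold change of 0.28 (edgeR adjusted p = 0.584).

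Bcl11b lies on the minus strand of chromosome 12 (107910403 to 108003602, GRCm38) with 8111 exon bases. It codes for the zinc finger factor also known as CTIP2, which acts downstream of Fezf2 in layer 5 neurons and is also strongly expressed in projection neurons of the striatum. It measured 31.8, 21.8, 27.02 and 29.8 CPM in vehicle mice, 53.2, 37.2, 43.9 and 47.0 CPM at 24 h, and 36.65, 64.45, 61.4 and 40.7 CPM at 48 h. All 8 mice at 24 h and 48 h were above all vehicle mice, yet the gene did not pass the test at either time. Its log2 fold change was 0.71 at 24 h (SE 0.33, edgeR adjusted p = 0.118) and 0.88 at 48 h (SE 0.33, edgeR adjusted p = 0.0515). At 24 h it passed by limma with voom (adjusted p = 0.0344) and by edgeR with only the compared groups (adjusted p = 0.00673), and under no other alternative. At 48 h the result sat at the threshold and went both ways. DESeq2 gave an adjusted p of 0.0308, limma with voom and sample weights 0.00471, and edgeR without mouse 1 of the 48 h group 0.0457. By edgeR it was 0.135 without vehicle mouse 2, 0.140 or 0.126 without mouse 2 or 3 of the 48 h group, and 0.130 without the 3 mice numbered 6 in the headers (log2 fold change 0.74). With the 18S pseudogene share as a covariate, described with the depth of the libraries, the log2 fold change at 48 h turned to -0.38.

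At 7 days Bcl11b measured 45.5, 85.95, 23.0 and 100.6 CPM in mice 1 to 4. Mice 2 and 4 were the highest of all 16 mice for this gene, while mouse 3 was within the vehicle range. The log2 fold change of 1.204 (SE 0.33) was the largest of the 8 members in any comparison with vehicle, and its adjusted p was 0.105 by edgeR (unadjusted p = 0.00176) and 0.0196 by DESeq2. Without mouse 1 of the 7-day group the edgeR adjusted p was 0.0260, without mouse 3 it was 0.00884, and without mouse 2 or mouse 4 it was 0.401 or 0.404. Without the 3 mice numbered 6 in the headers it was 0.434. The log2 fold change was 1.03 without mouse 2 and 0.90 without mouse 4, and 3 of the 4 mice were above all vehicle mice.

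Foxp2 lies on the plus strand of chromosome 6 (14901349 to 15441977, GRCm38) with 16346 exon bases. It codes for a forkhead repressor of layer 6 neurons and is likewise expressed in striatal projection neurons. It measured 21.15, 25.2, 40.1 and 28.8 CPM in vehicle mice, 46.9, 36.6, 31.7 and 48.5 CPM at 24 h, and 40.85, 39.8, 53.4 and 35.5 CPM at 48 h. The ranges overlapped, with vehicle mouse 3 above 2 of the 4 mice at 24 h and 2 of the 4 at 48 h. At 7 days mice 2 and 4, at 74.7 and 65.5 CPM, were the highest of all mice, and mouse 3, at 16.35 CPM, was the lowest. The log2 fold changes were 0.51, 0.56 and 0.68 at the 3 times, with edgeR adjusted p-values of 0.299, 0.232 and 0.336. Without mouse 2 of the 7-day group, which the headers number 6, the value at 7 days was 0.35 (edgeR adjusted p = 0.830), and without mouse 4 it was 0.47.

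**Figure D2:**
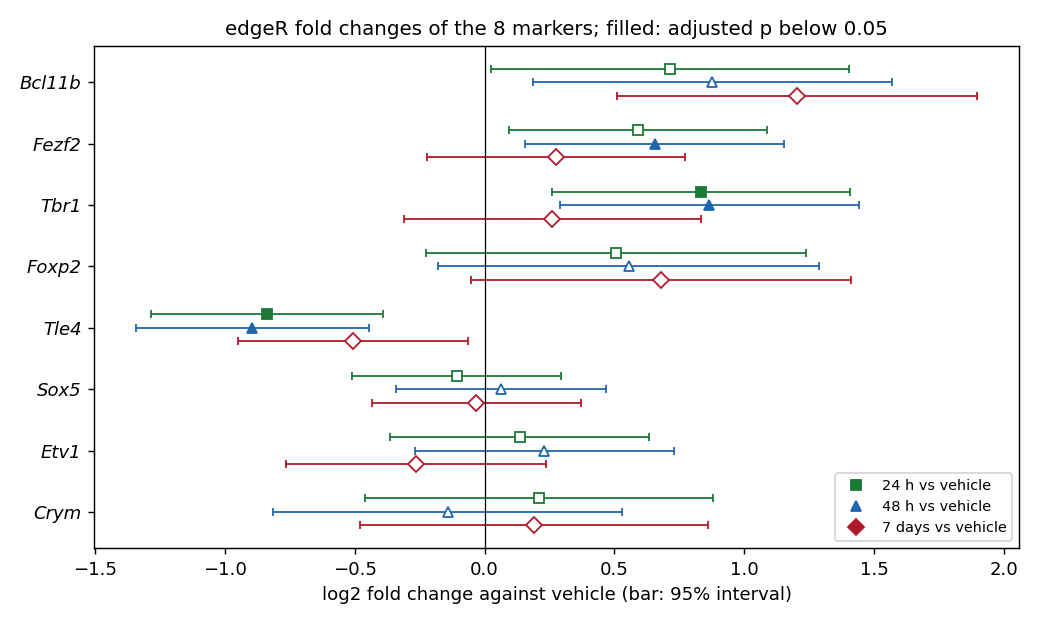
Log2 fold change of each marker against vehicle at 24 h, 48 h and 7 days from edgeR, with 95% intervals from 4 mice a group; filled symbols passed an adjusted p of 0.05. Filled symbols appear for Tle4 on the negative side (-0.84 and -0.89) and for Tbr1 (0.83 and 0.86) and Fezf2 (0.66) on the positive side, while the intervals of Sox5, Etv1 and Crym include 0 throughout.

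The remaining members gave no call. Sox5 lies on the minus strand of chromosome 6 (143828425 to 144781977, GRCm38) and codes for an SRY-box factor that times the production of deep-layer neurons. Its means were 78.2 ± 11.2 CPM (SD, n = 4) in vehicle mice, 72.55 ± 15.95 (SD, n = 4) at 24 h, 81.7 ± 19.2 (SD, n = 4) at 48 h and 76.5 ± 6.20 (SD, n = 4) at 7 days. The 95% intervals of its log2 fold change were -0.51 to 0.30, -0.34 to 0.47 and -0.43 to 0.37 at 24 h, 48 h and 7 days. Its SD between mice of a group, 0.25 on the log2 scale, was the lowest of the 8 members.

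Etv1, on the plus strand of chromosome 12 (38779380 to 38870484, GRCm38), codes for an ETS factor of layer 5 neurons. Vehicle mice had 49.35 to 72.6 CPM. Mice at 24 h had 53.9 to 88.4 CPM, those at 48 h had 51.45 to 118.5 CPM, and the 7-day mice had 48.1 to 56.4 CPM. The value of 118.5 CPM was that of mouse 1 at 48 h, the other 3 mice of the group lying at or below 64.9 CPM. The 95% intervals of the log2 fold change were -0.36 to 0.63, -0.27 to 0.73 and -0.76 to 0.24 at the 3 times.

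Crym, on the minus strand of chromosome 7 (120186380 to 120202111, GRCm38), codes for mu-crystallin, which binds thyroid hormone in the cytoplasm. It varied widely within groups and measured 138.3, 66.6, 93.5 and 73.7 CPM in vehicle mice and 49.2, 144.8, 86.6 and 149.4 CPM at 24 h. At 48 h the 4 mice lay between 65.6 and 100.5 CPM, and at 7 days between 60.1 and 149.1 CPM. No group stood apart, and the 95% intervals of the log2 fold change were -0.46 to 0.88, -0.81 to 0.53 and -0.48 to 0.86 at the 3 times.

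Between 24 h and 48 h no member differed: 0 of 8 passed by edgeR, 0 had an unadjusted p below 0.05 (1.88% of all genes did), and DESeq2 and limma with voom also gave 0, beside 0% of all genes by edgeR. The largest log2 fold change between these times was 0.35 in size, for Crym. Between 48 h and 7 days 0 of 8 passed by edgeR, DESeq2 and limma with voom, with 1 member, Tbr1, at an unadjusted p below 0.05 (16.5% of all genes). At 7 days against vehicle 2 members, Bcl11b and Tle4, had an unadjusted p below 0.05, where 16.8% of all genes did.

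Compared per length in vehicle mice, as RPKM, which divides the CPM by the exon length of the gene, Crym had the highest level of the 8 at 27.4 ± 9.515 (SD, n = 4), then Tle4 at 18.04 ± 2.17 (SD, n = 4). After a gap came Tbr1 at 7.76 ± 0.872, Fezf2 at 7.28 ± 1.42, Sox5 at 5.44 ± 0.781, Etv1 at 4.67 ± 0.854 and Bcl11b at 3.40 ± 0.533 RPKM (SD, n = 4 each). Foxp2 was lowest at 1.76 ± 0.498 RPKM (SD, n = 4). Neighbours in this order overlapped between mice, except that all vehicle mice had more Tle4 than Tbr1 and more Bcl11b than Foxp2. The length used is that of all annotated exons of a gene merged, so a gene reads low on this scale where part of that length is not transcribed in these nuclei.

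The 2 libraries made from each mouse agreed more closely than mice did. The SD of log2 CPM between libraries of a mouse was 0.11 to 0.19 across the 8 genes, and the SD between mice of a group was 0.25 to 0.59. The median fold between the libraries of a mouse was 1.06 for Bcl11b and 1.18 for Fezf2, the lowest and the highest of the 8. The widest single gap was 1.55-fold, for Bcl11b in mouse 3 at 48 h.

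**Figure D3:**
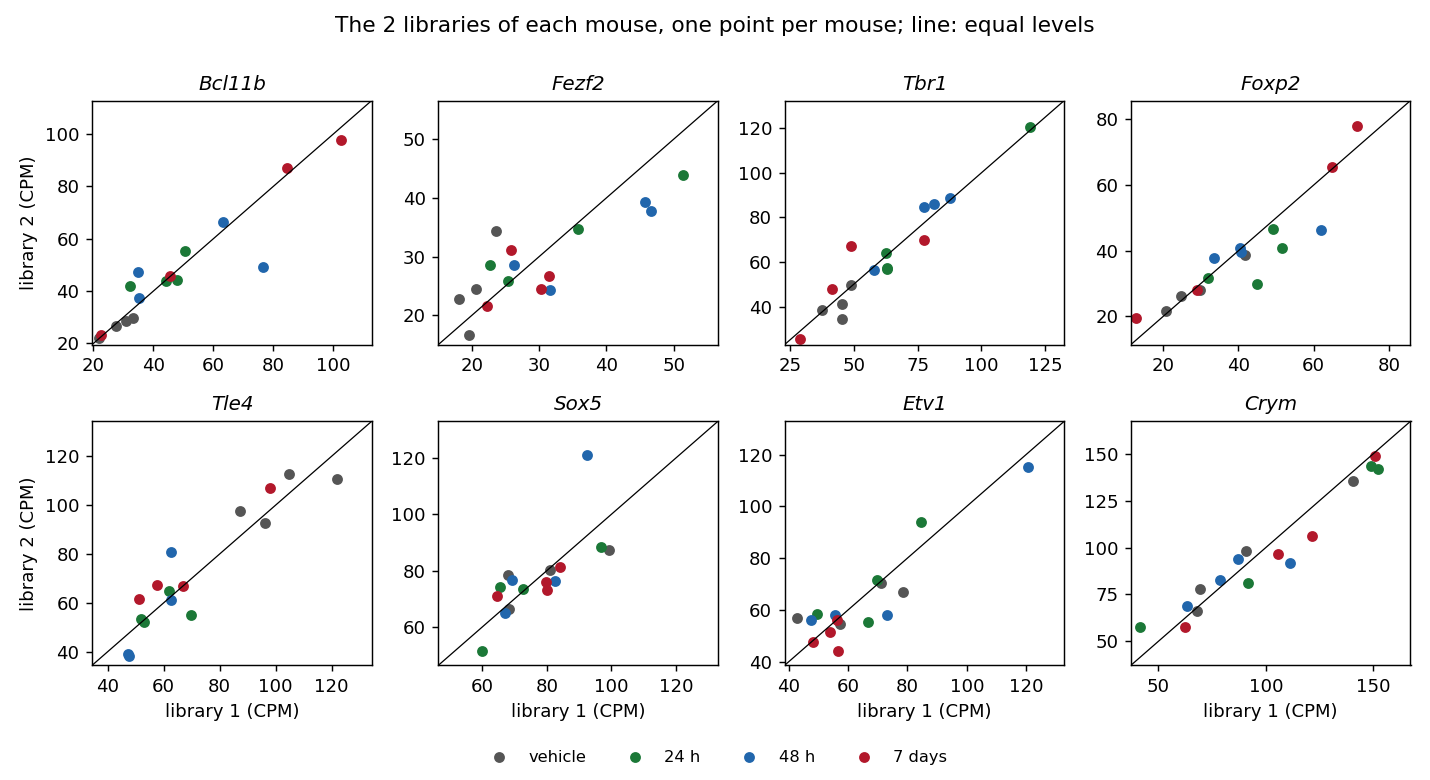
Level of each marker in library 1 against library 2 of the same mouse, in CPM, 1 point per mouse, coloured by group, with the line of equal levels. Points lie along the line for each gene, with the widest gap 1.55-fold, for Bcl11b in mouse 3 at 48 h.

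Depth differed between the groups. Vehicle mice had 9151680 to 11517452 reads each, mice at 24 h had 6441396 to 8090559, those at 48 h 5834248 to 7344355 and those at 7 days 6972577 to 12354785, so vehicle mice were deeper than all mice at 24 h and 48 h. With all mice thinned to 5834248 reads, Tle4 and Tbr1 kept their calls at both times and Fezf2 at 48 h did not (edgeR adjusted p = 0.0597). The share of reads on an 18S ribosomal RNA pseudogene, which measures library make-up and not a neuronal gene, was 0.00694 to 0.0101% in vehicle mice, 0.328 to 1.57% at 24 h and 0.523 to 1.66% at 48 h. At 7 days it was 0.00834, 0.633, 0.00607 and 0.474% in mice 1 to 4. With this share as a covariate, or with the mitochondrial share, 0 members were called in any comparison. Over all genes 0 were called with the 18S share at 24 h and 48 h, and 264 and 0 with the mitochondrial share. With the 18S share Tle4 was at -0.49 and -0.52 at the early times, and with the mitochondrial share at -0.785 and -0.81, as log2 fold changes. Fezf2 was at 0.45 and 0.505 with the first and at 0.72 and 0.87 with the second. Tbr1 moved most of the 3 called members, to 0.32 and 0.31 with the first and to 0.36 and 0.0835 with the second. Group membership accounted for 75.1% and 53.9% of the variance of these shares on the log2 scale, so for the calls above the DOI groups and library make-up cannot be told apart.

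Bulk counts do not separate fewer cells of a type from less RNA per cell, and markers of other neurons were therefore read in the same mice. Of 9 markers of glutamatergic neurons 2 passed at 24 h, both higher, namely Tbr1 itself and Camk2a (log2 fold change 2.96). Without these the summed level of the other 7 was 285.9 to 351.1 CPM in vehicle mice, 246.3 to 298.5 at 24 h and 237.7 to 271.2 at 48 h. At 7 days it was 351.4, 181.6, 275.4 and 198.1 CPM in mice 1 to 4. The direction depended on leaving out Tbr1 and Camk2a, the 2 that passed. With them the 9 markers summed to 518.8 to 574.2 CPM in vehicle mice. No mouse of the 24 h group then had less than 989 CPM, and none of the 48 h group less than 1486 CPM. For all 9 the 7-day mice 1 to 4 had 524.4, 1416, 466.3 and 1277 CPM. The 14 cortical interneuron markers summed to 2212 to 4166 CPM in vehicle mice and 2766 to 4531 CPM at 24 h, while the later groups had 2916 to 4513 CPM (48 h) and 2297 to 4777 CPM (7 days), with 2 higher and 3 lower at 24 h. Gad1, the main enzyme of GABA synthesis, was among those lower, with a log2 fold change of -0.84 (edgeR adjusted p = 0.0135). The others lower were Gad2 (-0.6268, edgeR adjusted p = 0.03519) and Dlx6os1 (-1.086, edgeR adjusted p = 0.008336). The 2 higher were Slc32a1 (1.097, edgeR adjusted p = 0.04434) and Cck (0.9784, edgeR adjusted p = 0.03611), so the list did not run in 1 direction.

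Markers of glia were also read. The 8 astrocyte markers summed to 768.0 to 833.6 CPM in vehicle mice, 827.3 to 1184 at 24 h and 667.1 to 1149 at 48 h, while the 7-day mice had 562.3 to 795.2 CPM. Among them 1 passed at 24 h, Fgfr3, with a log2 fold change of 0.77 (edgeR adjusted p = 0.0389). The 8 oligodendrocyte markers summed to 174.8 to 389.1 CPM in vehicle mice, 173.4 to 271.9 at 24 h and 199.2 to 262.3 at 48 h, while the 7-day mice had 219.8 to 384.4 CPM. Of these 1 was higher and 1 lower at 24 h, and 1 was lower at 48 h. Mbp, a myelin protein gene, was the lower one at 24 h (log2 fold change -0.83, edgeR adjusted p = 0.0367), and Cnp, a myelin enzyme gene, at 48 h (-1.02, edgeR adjusted p = 0.0457). Of 4 precursor markers tested 1 was higher at 24 h, and 1 was higher and 1 lower at 48 h. Cspg4, which codes for the proteoglycan NG2, was the higher one at both times. It lay at only 0.2274 to 0.7554 CPM in vehicle mice and was kept among the tested genes only through the DOI groups, so no test of it is given. Olig1, a factor of the oligodendrocyte lineage, was the lower one (-1.26, edgeR adjusted p = 0.0183). The 7 microglia markers summed to 133.0 to 167.7 CPM in vehicle mice and 74.45 to 146.9 CPM at 24 h, and to 88.55 to 134.7 CPM at 48 h. By edgeR 0 of 6 tested passed at either time, while before adjustment 0 did at 24 h and 2 at 48 h. The 6 endothelial and mural markers summed to 12.1 to 16.8 CPM in vehicle mice, 16.5 to 40.1 at 24 h and 14.2 to 44.8 at 48 h, and 1 of 3 tested, Vtn, was higher at both times. The 5 claustrum markers summed to 514.6 to 878.4 CPM in vehicle mice, 273.9 to 561.3 at 24 h and 346.6 to 547.4 at 48 h, with 0 of 5 passing by edgeR and 1 and 2 below 0.05 before adjustment. In the list of 7 olfactory bulb markers, which summed to 495.6 to 939.7 CPM in vehicle mice and 278.1 to 519.8 CPM at 24 h, Eomes and Tbx21 were at 0 in 14 of 16 mice each and the other 5 in none. Their part and that of the other marker lists in the results for the 8 genes was not tested.

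Striatal projection neurons, which express Bcl11b and Foxp2, lie beneath the frontal cortex. The 15 markers of these neurons summed to 392.6 to 480.7 CPM in vehicle mice and 313.6 to 372.5 CPM at 24 h, below all vehicle mice. At 48 h they summed to 394.5, 773.5, 395.0 and 600.3 CPM, and at 7 days to 753.0, 2168, 477.2 and 1617 CPM in mice 1 to 4. Mice 2 and 4 at 7 days were thus the highest of all 16 mice for the striatal sum and for both Bcl11b and Foxp2. Their 18S shares were also high, at 0.633 and 0.474%, against 0.00834 and 0.00607% in mice 1 and 3. The striatal sum and library make-up therefore cannot be told apart in these mice.

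In those 2 mice Rgs9, a striatal regulator of G protein signalling, was at 126.9 and 126.3 CPM where vehicle mice had 4.78 to 8.25 CPM. Penk, which codes for enkephalin, was at 941.2 and 569.6 CPM (vehicle 102.2 to 237.2), and Drd1, the D1 dopamine receptor, was at 126.2 and 97.4 CPM (vehicle 35.4 to 45.8). Of the defining markers, Drd2, the D2 dopamine receptor, was at 15.46 and 6.16 CPM in those mice (vehicle at most 0.973), and Adora2a, an adenosine receptor, at 6.39 and 1.96 CPM, with 0 in mice 1 and 3 (vehicle at most 0.455). Over all 16 mice Adora2a was at 0 in 9, Isl1 in 10 and Six3 in 11. Not every marker followed: Ppp1r1b, the gene of DARPP-32, was at 70.5, 72.6, 48.45 and 46.3 CPM at 7 days (vehicle 27.6 to 59.1), and Rarb, a retinoic acid receptor gene, had a log2 fold change of -0.09 at 7 days. Mouse 2 at 7 days is 1 of the 3 mice numbered 6 in the headers, and mouse 4 is not. Of 11 striatal markers tested, 0 higher and 2 lower passed at 24 h, 1 higher at 48 h and 0 at 7 days by edgeR, when 9 had an unadjusted p below 0.05 and the median log2 fold change was 1.63. In the edgeR test for any group 8 of the 11 passed. Their part in the Bcl11b and Foxp2 levels at 7 days was not tested. At 24 h Bcl11b was above all vehicle mice, as were 18.5% of all genes, and the striatal sum was below all of them. How the sum and Bcl11b are related at 24 h was not tested either.

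**Figure D4:**
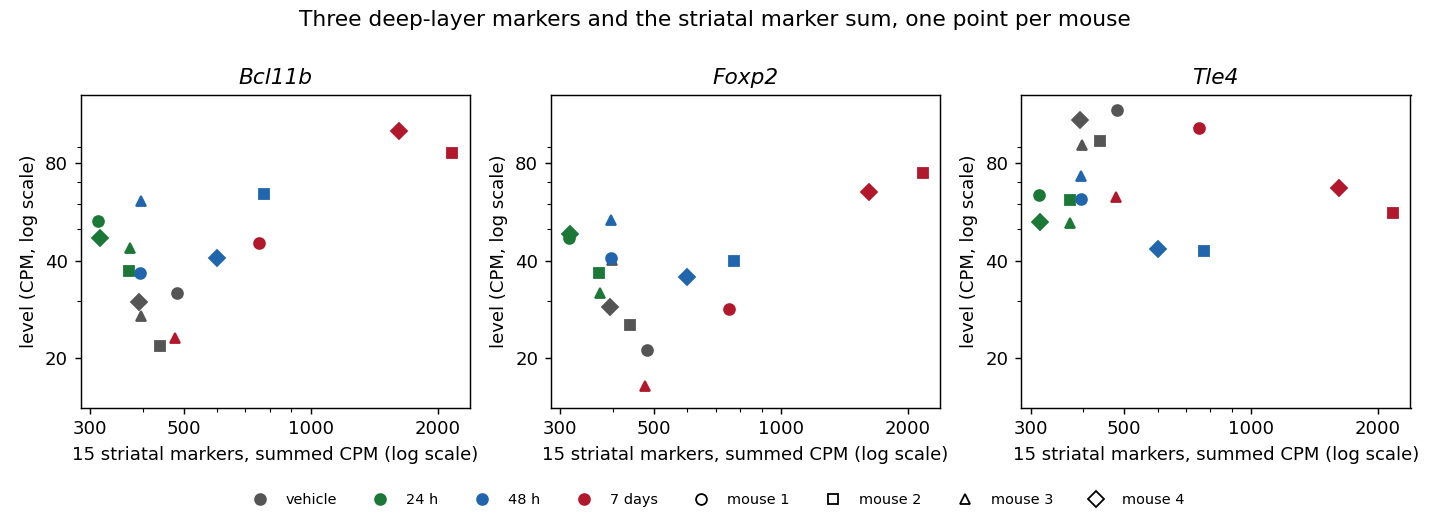
Level of Bcl11b, Foxp2 and Tle4 against the summed level of 15 striatal markers, 1 point per mouse, both axes in CPM on a log scale, coloured by group and shaped by mouse number. Mice 2 and 4 of the 7-day group lie far to the right at 2168 and 1617 CPM and at the top for Bcl11b and Foxp2, while Tle4 in the same mice lies at 56.25 and 67.2 CPM, below every vehicle mouse.

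Other markers of the deep layers also moved in both directions. Over 6 lists of further markers of layers 5 and 6, 42 genes could be tested: 6 were higher and 3 lower at 24 h (21.4%), 5 higher and 1 lower at 48 h (14.3%) and 0 at 7 days by edgeR, with 10 at an unadjusted p below 0.05. Their median log2 fold change was 0.11 at 24 h and 0.20 at 48 h. These shares lie below the 24.2% and 30.1% of all genes, so the deep-layer lists did not hold more calls than the tested genes as a whole.

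Among 11 markers of layer 5 extratelencephalic neurons, those that leave the cortex, 2 were higher at 24 h. Bcl6, a zinc finger repressor, was at 4.00 ± 0.891 CPM (SD, n = 4) in vehicle mice and at 17.0 ± 1.02 CPM (SD, n = 4) at 24 h, which is 2.08 higher on the log2 scale (edgeR adjusted p = 0.00290), and it reached 22.75 ± 3.85 CPM (SD, n = 4) at 48 h (edgeR adjusted p = 0.00153). Ldb2, a LIM domain binding cofactor, was 0.72 higher at 24 h (edgeR adjusted p = 0.0487) and 0.55 at 48 h (edgeR adjusted p = 0.112), each as log2 fold change. Of 5 markers of layer 5 intratelencephalic neurons 1 was lower: Deptor, an inhibitor of mTOR kinase, went from 57.5 ± 4.305 CPM (SD, n = 4) to 34.5 ± 7.57 CPM (SD, n = 4) at 24 h, a log2 difference of -0.74 (edgeR adjusted p = 0.0305).

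The 7 markers of near-projecting neurons split. Tshz2, a zinc finger homeobox factor, rose by 1.28 on the log2 scale at 24 h (edgeR adjusted p = 0.0154), while Vwc2l, at -1.16 (edgeR adjusted p = 0.0304), and Nxph1, which codes for a ligand of alpha-neurexins, at -0.72 (edgeR adjusted p = 0.0371), were lower. Of 10 markers of layer 6 corticothalamic neurons, the class that Tle4 marks, 2 were higher and 0 lower at 24 h (20.0%). At 48 h 1 was higher and 0 lower (10.0%), and both shares lie below the 24.2% and 30.1% of all genes. Grik3, a kainate receptor subunit, went from 50.8 ± 6.07 CPM (SD, n = 4) to 102.9 ± 29.3 CPM (SD, n = 4) at 24 h (log2 fold change 1.02, edgeR adjusted p = 0.0113), and Ntsr1, the neurotensin receptor, from 4.06 ± 1.275 to 10.8 ± 2.97 CPM (SD, n = 4 each; log2 fold change 1.405, edgeR adjusted p = 0.0327). Over the list 7 of 10 log2 fold changes were positive at 24 h, with a median of 0.27. The other 3 were negative and did not pass: Garnl3 was 315.0 to 359.8 CPM in vehicle mice and 230.7 to 304.5 CPM at 24 h, without overlap (-0.41, edgeR adjusted p = 0.132), a separation in this direction seen in 17.2% of all genes, and Sla and Hs3st4 were at -0.48 and -0.30. These 3 names were chosen after their values were seen.

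Sulf1, an extracellular sulfatase, was the 1 of 4 layer 6 intratelencephalic markers called at 24 h, with a log2 fold change of 1.16 (edgeR adjusted p = 0.0320), and 0 of 5 markers of layer 6b passed by edgeR, with 0 at an unadjusted p below 0.05. Of 15 upper-layer markers 4 were higher and 0 lower at 24 h (26.7%). They include Cux2, a homeobox factor of layers 2 to 4, with a log2 fold change of 1.57 (edgeR adjusted p = 0.00651), Rasgrf2 with 1.02 (edgeR adjusted p = 0.00533) and Unc5d with 1.079 (edgeR adjusted p = 0.0222). Mdga1 is also counted, but it lay at 0.5895 to 1.023 CPM in vehicle mice. It was kept among the tested genes only through the DOI groups, so no test of it is given. At 48 h the count was again 4 higher and 0 lower, with Mdga1 counted. Markers of the upper layers were therefore called about as often as the 8 deep-layer genes and as all genes, and the difference between the layers was not tested.

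**Figure D5:**
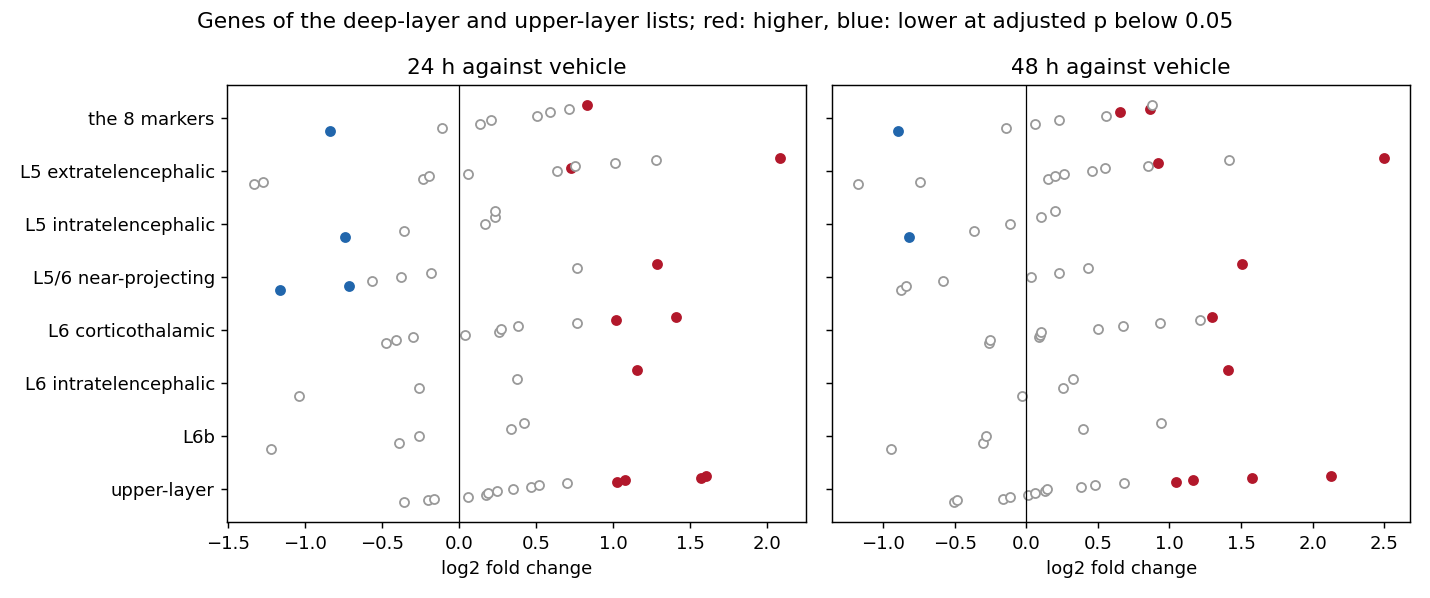
Log2 fold change against vehicle of the 8 markers and of the further deep-layer and upper-layer lists at 24 h and 48 h, 1 point per gene tested; red points were higher and blue points lower at an adjusted p below 0.05. Called genes lie on both sides among the deep-layer lists (6 higher, 3 lower at 24 h, besides the 8 markers) and on the positive side among the upper-layer genes (4 higher).

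Regulators and partners of the deep-layer network gave 6 higher and 1 lower of 29 tested at 24 h (24.1%) and 6 higher and 2 lower at 48 h (27.6%). Ebf1, at 0 to 0.0982 CPM in vehicle mice, is counted among those higher at both times. It was kept among the tested genes only through the DOI groups, so no test of it is given. Nfia, a nuclear factor of neuronal and glial differentiation, had a log2 fold change of 1.36 at 24 h (edgeR adjusted p = 0.00372), and Bcl11a, the paralog of Bcl11b also known as CTIP1, one of 1.02 (edgeR adjusted p = 0.0264) from 90.75 ± 15.8 CPM (SD, n = 4) in vehicle mice. Sox4, an SRY-box factor, was the 1 that was lower, with a log2 fold change of -0.996 (edgeR adjusted p = 0.0304). Counting used no strand, and Bcl11a, Bcl6, Deptor and Nfia each share exon bases with 1 feature on the opposite strand, so reads of the pairs cannot be told apart.

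Inside the span of Sox5 the annotation holds 7 other features, and 1 of them, Sox5os1 on the opposite strand, shares 1330 bases, or 9.25%, of the Sox5 exon bases. It had at most 8 reads in a mouse. Sox5it lies on the same strand within Sox5 (chromosome 6, 144670427 to 144672720, GRCm38) and shares no exon bases with it. It had 0 reads in every vehicle mouse, 8, 6, 16 and 1 reads at 24 h, 7, 3, 11 and 10 reads at 48 h, and 0, 14, 0 and 17 reads at 7 days in mice 1 to 4. It was kept among the tested genes only through the DOI groups, so no test of it is given. At 7 days its reads came from mice 2 and 4, the mice with the high 18S share and the high striatal sum, and the part of either in the result was not tested.

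Within groups, the genes whose levels ran most like each member over the 16 mice were found by Pearson's r of log2 CPM after subtracting group means, over the 8955 genes whose log2 CPM averaged 4 or more. For Bcl11b they were Gdi2 (r = 0.946) and Slitrk1 (0.939), for Foxp2 Bptf (0.958) and Gm37814 (0.955), for Tbr1 A830082N09Rik (0.912) and Azi2 (0.905) and for Crym Scg3 (0.941) and Fstl5 (0.910). For Tle4 they were Zkscan8 (0.870) and Gabrb2 (0.847), for Sox5 Kcna1 (0.856) and Arhgap18 (0.840), for Etv1 Terf1 (0.860) and Sec24d (0.854), and for Fezf2 Trbc2 (0.816) and Deptor (0.816). These are descriptions over mice that share depth and library make-up within a mouse. No member was among the 2 most alike genes of another, yet some members ran together. The r was 0.825 for Bcl11b and Foxp2, 0.798 for Bcl11b and Tbr1, 0.752 for Tbr1 and Foxp2 and 0.58 for Fezf2 and Crym. These were the 4 of 28 member pairs with r above 0.5, and the lowest was -0.449, for Fezf2 and Tbr1.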

How the data were processed

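RNA was read as gene counts from 32 libraries of 16 mice. The authors' deposited values are raw read counts per gene, made with featureCounts 2.0.0 over exons of a GRCm38 annotation, with no strand, pairing or multi-mapping option, per the file headers. Trim Galore 0.6.5 and mm10 are named in the submitters' processing notes; the RNA aligner is not given in the sources used here. Symbols were found for 55141 of 55401 gene IDs (99.5%). Library totals were 2763704 to 7436451 reads; 3 counts equal 0.254 to 0.502 CPM.

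The 2 libraries of a mouse were summed. Genes were filtered with filterByExpr, scaled by TMM and tested in 1 fit over the 4 groups with edgeR 4.0.16 (R 4.3.3, prior count 2). The H3K27ac data were not analysed here. Alternatives were DESeq2 1.42.0, limma 3.58.1 with voom, other scalings, filters, single libraries, only the compared groups, a replicate block, each mouse left out and, chosen after seeing the data, 2 covariates, thinned counts and leaving out 3 mice (mouse 1 at 24 h, mouse 2 at 48 h and mouse 2 at 7 days) that the headers number 6. On data simulated for 24 h against vehicle (17941 genes, 200 changed 3-fold) the fit recovered 160 with 13 false calls. Every simulated gene had the same spread (dispersion 0.1), and no difference in library make-up between groups was put in. The simulation therefore does not give the error rate of the real comparisons. Members and lists were chosen with earlier results of these data known. Besides the members, the up to 4 genes of each list with the smallest p at 24 h were named (adjusted p below 0.05, mean log2 CPM at least 1). That rule covers the layer, regulator and paralog lists. Ebf1, other relatives of Tle4, and genes of the marker lists for other cell types, were chosen for naming after their values were seen. Promoters came from RefSeq (GRCm38.p6).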

Additional observations from a re-analysis of the deposited data

Results flagged for a closer look

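Tbr1 in mouse 1 at 24 h, at 120.5 CPM, lay far from the other 3 mice of its group, the nearest of which was at 63.4 CPM. The gap was 0.931 of the range of the group, above the 95% critical value of Dixon's test for 4 values. The 8 members in 4 groups gave 32 such groups of 4 mice, of which chance gives about 1.6. Mouse 1 at 24 h is 1 of the 3 mice that the headers number 6.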

How the results depend on the processing

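Tle4 was called lower at 24 h and at 48 h under every alternative except the 2 covariates, under each of which 0 members were called at 24 h, 48 h, 7 days and in the test for any group. At 24 h 4 members were called by limma with voom (7236 of all genes, against 4346 in the main analysis), and 1 with the replicate block (3667 genes) and without the 3 mice numbered 6 in the headers. At 48 h 5 were called when only the compared groups were fitted (6824 genes, against 5395), and 2 with the replicate block (4664 genes). At 7 days 1 was called by DESeq2 (796 genes) and with no filter (958 genes), each time Bcl11b, and 0 with the replicate block. In the test for any group 4 were called by limma with voom, 3 by DESeq2 and with no filter, and 2 with total counts, upper quartile factors, library 2 alone or thinned counts. The replicate block, by mouse number, lost Tbr1 at 24 h (edgeR adjusted p = 0.0618) and Fezf2 at 48 h (edgeR adjusted p = 0.0582); same-numbered mice are different animals, and their deviations correlated at a mean of -0.036, so the number does not pair them. With 1 mouse left out, members called ranged from 1 to 2 at 24 h, from 1 to 3 at 48 h, from 0 to 2 at 7 days and from 0 to 3 for any group.

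No member changed direction in a comparison in which edgeR called it as designed. Bcl11b, called at 24 h and 48 h only under alternatives, and Foxp2, called at 48 h only under alternatives, did so with the 18S share. With the 18S share in the model, the value at 24 h (log2 fold change) was -0.48 for Bcl11b, -1.03 for Foxp2, -0.091 for Etv1 and -0.29 for Crym. At 48 h it was -0.38 for Bcl11b, -1.09 for Foxp2, -0.016 for Sox5 and -0.0097 for Etv1, and at 7 days -0.016 for Tbr1, -0.21 for Foxp2 and -0.0008 for Crym. With the mitochondrial share it was -0.16 for Foxp2 at 24 h, -0.60 for Foxp2 and -0.0455 for Sox5 at 48 h, and -0.096 for Tbr1 at 7 days. Sox5 was at -0.0007 at 48 h in library 1 alone, and at 7 days at 0.025 with total counts, 0.0020 with upper quartile factors, 0.0050 with only the compared groups and 0.0024 with thinned counts. From 48 h to 7 days Foxp2 was at -0.17 by limma with voom and at -0.24 without the 3 mice numbered 6. With 1 mouse left out, the log2 fold changes at 24 h ran from -0.25 to 0.0011 for Sox5, from -0.0235 to 0.23 for Etv1 and from -0.0004 to 0.46 for Crym. At 48 h they ran from -0.11 to 0.16 for Sox5, from -0.12 to 0.35 for Etv1 and from -0.29 to 0.12 for Crym. At 7 days they ran from -0.098 to 0.054 for Sox5 and from -0.012 to 0.45 for Crym, and from 48 h to 7 days from -0.21 to 0.41 for Foxp2 and from -0.19 to 0.077 for Sox5. The cause was not tested.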
